A study of Mus musculus with 143 samples.

Results

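The 33 genes described here encode the nuclear machinery that cuts and polyadenylates messenger RNA, together with Integrator. They were taken by name from a list of cleavage and polyadenylation factors, poly(A) polymerases, nuclear poly(A) binding proteins and Integrator subunits. The list names them by function and sets no threshold on a value, but it was drawn up with earlier results of these data known. They are 33 of the 55573 gene IDs in the poly(A) count tables and of the 55487 in the RiboMinus tables, and all 33 passed the filter on low counts and were tested in every comparison. By role they fall into 8 genes of the cleavage and polyadenylation specificity factor (CPSF) and its partners, 4 of the cleavage stimulation factor (CstF), 3 of cleavage factor I (CFIm), 2 of cleavage factor II (CFIIm), 4 of tail synthesis and tail binding, and 12 Integrator subunits.

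As background, most pre-mRNAs end where CPSF recognises the poly(A) signal and its endonuclease cuts the transcript, with CstF bound to a GU-rich element downstream and CFIm to upstream UGUA elements, after which a poly(A) polymerase adds the tail. Integrator is a separate endonuclease complex on RNA polymerase II (Pol II) that cuts small nuclear RNA precursors and ends many short, unproductive transcripts. In the nucleus the RNA exosome degrades much of the RNA that these ends release, and in the growing oocyte stored messages are kept with short tails until the egg matures.

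The study removed 1 or both ribonucleases of the nuclear exosome, DIS3 and EXOSC10, from mouse oocytes by conditional knockout (cKO). Poly(A) RNA was sequenced from single oocytes at the germinal vesicle stage (GV, arrested in prophase with an intact nucleus), from GV oocytes after 3 h of culture (GV3h) and from ovulated metaphase II eggs (MII), as 8 control libraries per stage against 15, 16 and 16 from the Dis3 cKO. RNA depleted of ribosomal RNA (RiboMinus) was sequenced from single adult GV oocytes of control and Dis3 cKO females, and from oocytes of postnatal day 20 (p20) females that were control, Dis3 cKO, Exosc10 cKO or double knockout for both (dcKO), with 8 libraries in each group. CUT&Tag on pooled oocytes, which cuts DNA where an antibody is bound, gave 3 peak lists a group for the repressive histone mark H3K27me3 in adult control, adult Dis3 cKO, p20 control and p20 dcKO oocytes, and for phosphorylated Pol II in adult control, adult Dis3 cKO and p20 control oocytes. The mutant mice were made with CRISPR/Cas9, the GV oocytes were cultured in M2 medium, and the eggs came from superovulated females. The Cre driver, the age of the adult females and the number of females behind each group are not given in the sources used here, so p-values measure the spread between oocytes, some of which may share a mother.

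Library size ranged from 4843964 to 15412200 gene counts in the 71 poly(A) libraries and from 8492102 to 35429028 in the 48 RiboMinus libraries. Levels are given as counts per 1000000 of the library size after TMM scaling (CPM). This scaling was taken over all 71 poly(A) or all 48 RiboMinus libraries. The levels allow a gene to be compared between libraries but not with another gene. Dis3 was lower in every Dis3 cKO and dcKO group (log2 fold change -3.63 to -2.18) and Exosc10 in the Exosc10 cKO (-5.22) and dcKO (-4.01), as edgeR fitted them. All 8 oocyte markers had a median above 1 CPM in every group. The ratio of gene counts to ERCC spike-in counts is a measure of the RNA captured per oocyte. In poly(A) libraries this is polyadenylated RNA, so a change in tail length could alter it apart from the amount of RNA. The ratio was 42.2 to 52.3 in control MII eggs against 107.6 to 161.8 in control GV oocytes (poly(A)). In RiboMinus libraries it was 152.2 to 360.5 in adult Dis3 cKO against 335.6 to 487.4 in adult control oocytes. Scaling to ERCC therefore moved the median log2 fold change of all genes from 0.04 to -0.23 at GV, 0.16 to 0.52 at MII, -0.27 to -2.12 for control MII against GV, -0.05 to 0.17 for control GV3h against GV, 0.03 to -0.52 for the adult Dis3 cKO, 0.00 to -0.31 for the p20 Dis3 cKO and -0.00 to -1.69 for adult against p20 controls. Changes below are relative to the typical gene (TMM scaling) unless ERCC is named. MII Dis3 cKO library 15 stood apart with a ratio of 14.4, and p20 Dis3 cKO library 1_4 and Exosc10 cKO library 2_4 had the lowest ratios of their groups (547.4 and 582.2). Of the 8 GV control libraries, 2, 3 and 6 stood apart from the rest along the first principal component of the genes that are no members (27.5, 21.6 and 19.8, against -38 for library 1 and -9.6 to -5.4 for the other 4, 39.8% of the variance). They also held the 3 highest levels of that group for Rbbp6 (37.2 to 39.97 CPM, against 20.4 and below), Cpsf1, Cstf2, Cstf2t, Nudt21, Cpsf7, Clp1, Ints2, Ints7 and Ints11. Values without these 3 libraries, an alternative chosen after seeing the data, stand below beside each call that they end. For the genes just named, leaving out the highest controls lowers the control level in advance. A call gained in this way is therefore no test of the gene. Of the 33 genes 22 overlap another annotated gene, and whether reads were assigned by strand is not given in the sources used here. The 11 that overlap none are Cpsf2, Cpsf4, Sympk, Cstf3, Cpsf6, Nudt21, Clp1, Papola, Pabpn1, Ints3 and Ints5.

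To show what lies in front of genes that moved most in the dcKO, the 250 bases before the annotated start are printed for the 3 highest rises and the 3 largest falls whose window lies outside their own annotated gene (RefSeq, GRCm38.p6, strand of the gene, 5′ to 3′). Capitals mark each match, on either strand, to 1 of 4 motifs, which are the GC box GGGCGG, the CCAAT box CCAAT, the TATA box TATAAA and the ETS motif CCGGAAG, none of which contains another. The first 3 belong to genes that rose and the last 3 to genes that fell.
Clp1 chr2:84727288-84727537 (minus strand): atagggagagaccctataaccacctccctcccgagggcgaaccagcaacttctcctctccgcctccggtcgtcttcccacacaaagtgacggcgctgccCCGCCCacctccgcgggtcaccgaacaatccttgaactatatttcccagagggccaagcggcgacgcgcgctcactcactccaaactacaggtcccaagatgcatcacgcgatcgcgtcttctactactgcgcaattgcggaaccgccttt
Cstf3 chr2:104590234-104590483 (plus strand): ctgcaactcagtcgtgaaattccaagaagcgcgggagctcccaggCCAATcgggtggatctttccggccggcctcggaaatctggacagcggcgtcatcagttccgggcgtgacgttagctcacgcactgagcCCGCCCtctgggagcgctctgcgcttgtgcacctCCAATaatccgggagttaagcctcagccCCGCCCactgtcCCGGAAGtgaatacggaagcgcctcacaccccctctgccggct
Cstf2t chr19:31082591-31082840 (plus strand): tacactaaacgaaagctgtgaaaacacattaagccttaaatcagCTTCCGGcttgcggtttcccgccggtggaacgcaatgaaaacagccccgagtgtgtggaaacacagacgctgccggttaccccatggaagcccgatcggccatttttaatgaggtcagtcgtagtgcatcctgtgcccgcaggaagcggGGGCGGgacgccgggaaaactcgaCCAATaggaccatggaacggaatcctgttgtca
Pabpn1l chr8:122622736-122622985 (minus strand): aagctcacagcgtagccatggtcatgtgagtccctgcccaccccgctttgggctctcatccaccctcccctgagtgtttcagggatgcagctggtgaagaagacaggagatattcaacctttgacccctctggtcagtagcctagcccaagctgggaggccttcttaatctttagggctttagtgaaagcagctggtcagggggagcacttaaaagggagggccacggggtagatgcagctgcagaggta
Cpsf4 chr5:145166963-145167212 (plus strand): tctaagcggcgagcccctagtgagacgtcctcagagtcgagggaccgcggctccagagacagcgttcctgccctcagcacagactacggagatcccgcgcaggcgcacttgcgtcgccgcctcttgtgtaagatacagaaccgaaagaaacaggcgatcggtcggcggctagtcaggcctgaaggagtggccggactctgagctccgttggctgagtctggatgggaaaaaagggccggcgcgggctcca
Ints12 chr3:133091605-133091854 (plus strand): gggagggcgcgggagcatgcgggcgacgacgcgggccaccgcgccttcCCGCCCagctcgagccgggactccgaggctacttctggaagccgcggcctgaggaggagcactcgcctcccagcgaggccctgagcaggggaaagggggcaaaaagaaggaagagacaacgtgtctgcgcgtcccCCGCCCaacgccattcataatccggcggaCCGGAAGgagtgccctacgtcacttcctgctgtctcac
Clp1 had 1 GC box, written here on the opposite strand. Cstf3 had 2 GC boxes, 2 CCAAT boxes and 1 ETS motif, and Cstf2t had 1 of each. Ints12 had 2 GC boxes and 1 ETS motif, while Pabpn1l and Cpsf4 had no match in the printed bases. Both have a GC box in the 50 bases after the start, which are not printed. The Pabpn1l window held 3 CpG dinucleotides, against 24 in that of Cpsf4, 26 in Ints12, 23 in Clp1, 22 in Cstf3 and 19 in Cstf2t. Of the 33 genes, 27 had a promoter window in the RefSeq table. In the whole window, 250 bases before to 50 after the start, the GC box was found in 17 of these 27 (63.0%, against 38.2% of all 27025 windows), CCAAT in 13 (48.1% against 41.1%), the ETS motif in 8 (29.6% against 9.93%) and TATAAA in 0 (against 15.7%). Their median GC content was 62.3% against 52.7% over all windows, and their median number of CpG was 26 against 7, and the shares of motifs were not adjusted for this. A match is a run of letters, not a site that was shown to be bound.

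With both ribonucleases lost, genes of this machinery moved in opposite directions. In p20 dcKO oocytes 12 of the 33 genes were higher and 13 lower than in control, 25 in all (75.8%), where 53.7% of all 15882 genes tested were called (26.6% higher and 27.1% lower) at an adjusted p under 0.05 (quasi-likelihood test of edgeR, Benjamini-Hochberg adjusted over all genes, used throughout). Of the 25 genes 24 went the same way within both title tags, 11 were called within each tag, 6 within tag 1 only, 3 within tag 2 only and 5 in neither. Within tag 2 alone 14 of the 33 were called (24.8% of all genes), within tag 1 alone 18 (49.8%), and with counts summed per tag 18 (31.8%). The 11 called within each tag were Fip1l1, Rbbp6, Cstf2t, Cstf3, Cpsf6, Cpsf7, Pcf11, Clp1, Papolg, Ints5 and Ints12, and the 5 called in neither were Cpsf2, Papola, Ints6, Ints7 and Ints10. Summing per tag ended 7 calls, those of Cpsf2 (adjusted p = 0.0872), Cpsf4 (0.0669), Wdr33 (0.287), Papola (0.102), Ints3 (0.065), Ints7 (0.131) and Ints10 (0.1). The highest rises were in Clp1, Rbbp6 and Cstf3, and the deepest falls in Papolg, Fip1l1 and Pabpn1l. All members of CFIIm (2 of 2) and 3 of 4 of CstF rose, whereas no tail gene rose and 3 of 4 fell. The median log2 fold change was -0.08 over the 33 genes and -0.01 over all genes, with ERCC scaling -0.14 and -0.08. The share of all gene counts that fell on the 33 genes was 0.333% to 0.411% in dcKO and 0.316% to 0.330% in control libraries.

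**Figure D1:**
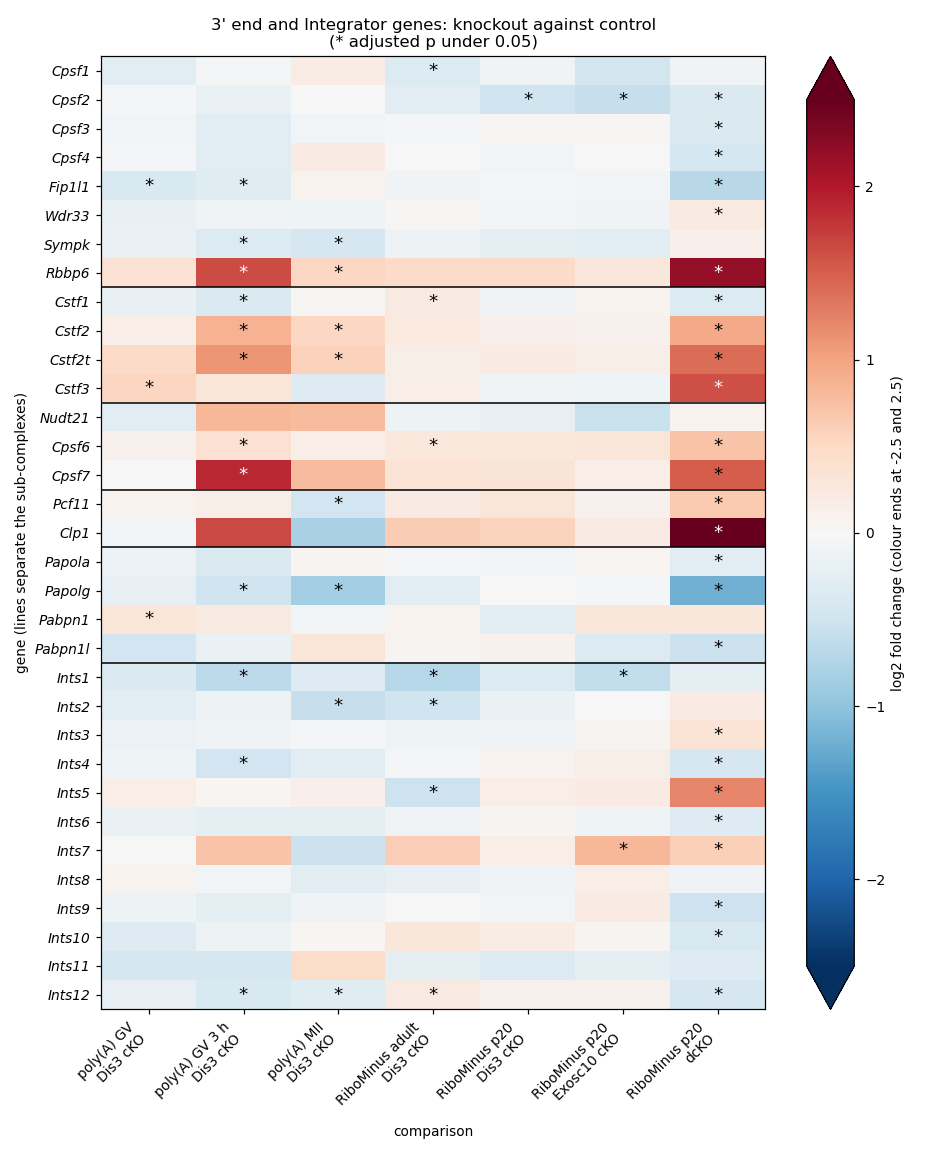
Heat map of the log2 fold change of each of the 33 genes (rows, grouped by complex) in the 7 comparisons of a knockout with its control (columns), with colours ending at ±2.5 and an asterisk where the adjusted p was under 0.05. The dcKO column holds 25 asterisks, in both colours, against 1 for the p20 Dis3 cKO and 3 for the p20 Exosc10 cKO.

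Within CPSF and its partners, Rbbp6, which activates the endonuclease within the cleavage complex, rose in the dcKO. Its level was 51.2 to 109 CPM (median 75.5) in control and 205 to 532 CPM (median 381) in dcKO libraries, a log2 fold change of 2.19 (SE 0.19, adjusted p = 4.33e-11). The lowest dcKO library lay above the highest control library. In the single knockouts Rbbp6 was 88.8 to 159 CPM (Dis3) and 65.02 to 140.4 CPM (Exosc10), which overlapped control. Fip1l1, which brings poly(A) polymerase to the cleavage complex, was 544 to 705 CPM (median 676) in control and 346 to 513 CPM (median 401) in dcKO, a change of -0.69 (SE 0.10, adjusted p = 8.03e-07) with no overlap. Cpsf4, a zinc finger subunit that reads the poly(A) signal with WDR33, fell by 0.44 on the log2 scale (adjusted p = 0.00528). Cpsf2, the partner of the endonuclease that has no activity of its own, changed by -0.37 (SE 0.14, adjusted p = 0.0239), and Cpsf3, the endonuclease itself, by -0.35 (adjusted p = 0.0026). Wdr33 was called higher (log2 fold change 0.23, adjusted p = 0.0322), with 240.4 to 253.4 CPM in the dcKO libraries of tag 2 but 140.3 to 204.9 in those of tag 1, against 151.6 to 212.3 in control. Its log2 fold change was 0.47 within tag 2 and -0.03 within tag 1. The scaffold genes Cpsf1 and Sympk had no call. Rbbp6 (GRCm38.p6 chr7:122969637-123002572) overlaps 4930413G21Rik, and Fip1l1 (chr5:74535438-74598790) overlaps Lnx1.

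CstF moved up more than any other complex with over 2 genes, with a median log2 fold change of 1.18 over its 4 genes. Cstf3, the scaffold subunit, was 28.9 to 43.5 CPM (median 32.6) in control and 41.8 to 179 CPM (median 95.1) in dcKO libraries (log2 fold change 1.61, SE 0.18, adjusted p = 6.95e-09). The groups met only at their edges. Cstf2t, an intronless paralogue of the RNA-binding subunit Cstf2, was 34.1 to 61.2 CPM (median 46) against 107 to 194 CPM (median 119), a change of 1.41 (SE 0.17, adjusted p = 1.65e-08) with no overlap. Cstf2 itself was 42.7 to 105 CPM (median 70.4) and 101 to 173 CPM (median 139), a log2 fold change of 0.95 (SE 0.20, adjusted p = 0.000177), and these groups overlapped by a narrow margin. Cstf1 went the other way (log2 fold change -0.34, adjusted p = 0.00217). Cstf2 overlaps Nox1 and Cstf1 overlaps Aurka. Cstf2t lies within Prkg1 on chromosome 19, and reads of either gene, or reads shared by Cstf2 and Cstf2t, could have been assigned to the other.

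In CFIm, which helps choose between poly(A) sites, both large subunits rose and the small one had no call. Cpsf7 was 7.20 to 23 CPM (median 15.9) in control and 29.1 to 59 CPM (median 46.6) in dcKO libraries (log2 fold change 1.51, SE 0.18, adjusted p = 2.62e-08), without overlap between the groups, though the gene overlaps Tmem216. Cpsf6 was 51.5 to 70.1 CPM (median 58.1) and 78.5 to 116 CPM (median 98.2), a log2 fold change of 0.72 (SE 0.12, adjusted p = 4.57e-06), also without overlap. Nudt21, the subunit that binds UGUA, was low in every p20 library (0.527 to 2.46 CPM in control, 0.587 to 4.57 in dcKO). Both CFIIm genes rose without overlap. Clp1, an RNA kinase of CFIIm that also serves in tRNA splicing, was 2.34 to 6.55 CPM (median 3.44) in control and 8.32 to 67.9 CPM (median 23.97) in dcKO libraries, the highest fold of the 33 genes at 2.81 (SE 0.34, adjusted p = 2.35e-08). The dcKO libraries whose titles carry tag 1 had 31.05 to 67.9 CPM and those with tag 2 had 8.32 to 16.9 CPM, each above all control libraries. The log2 fold change of Clp1 was 3.49 within tag 1 and 1.54 within tag 2, where that of Rbbp6 was larger (1.86). Pcf11, which binds the tail of Pol II and promotes termination, was 83.4 to 99.8 CPM (median 92.6) and 102 to 189 CPM (median 136), a log2 fold change of 0.65 (SE 0.10, adjusted p = 1.64e-06).

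Among the 4 tail genes 3 fell. Papolg, a nuclear poly(A) polymerase paralogous to Papola, was 155 to 228 CPM (median 199.6) in control and 45.1 to 111 CPM (median 83.7) in dcKO libraries, a log2 fold change of -1.21 (SE 0.13, adjusted p = 1.7e-09) with every dcKO library below every control. The gene overlaps Gm12061. Papola, the main nuclear poly(A) polymerase, changed by -0.26 (adjusted p = 0.0174). Pabpn1l, the oocyte and early embryo relative of the nuclear poly(A) binding protein PABPN1, was 78.3 to 129 CPM (median 119) and 45.6 to 94.3 CPM (median 87.7), a log2 fold change of -0.53 (SE 0.14, adjusted p = 0.00218), and the groups overlapped. Pabpn1 had no call (log2 fold change 0.29, adjusted p = 0.156). Of the 12 Integrator genes 3 rose, 5 fell and 4 had no call. Ints5, a subunit of the core, was 10.1 to 19.4 CPM (median 14.9) in control and 24.02 to 46.9 CPM (median 32.1) in dcKO, a rise of 1.23 (SE 0.17, adjusted p = 3.76e-07) without overlap. Ints7 and Ints3 were also called higher (0.59 and 0.34), Ints7 within neither tag alone (adjusted p = 0.0541 and 0.406) and Ints3 within tag 1 only. Ints9 and Ints4, which form the cleavage module with the endonuclease gene Ints11, were lower (log2 fold change -0.51, SE 0.12, adjusted p = 0.000334 for Ints9 and -0.43, adjusted p = 0.00167 for Ints4), whereas Ints11 had no call (log2 fold change -0.32, adjusted p = 0.129). Ints12, Ints10 and Ints6 were lower by 0.42, 0.40 and 0.32 on the log2 scale. Ints7 overlaps Dtl and Ints12 overlaps Gstcd.

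In all, 7 genes lay higher in every dcKO library than in every control library (Rbbp6, Cstf2t, Cpsf6, Cpsf7, Pcf11, Clp1 and Ints5) where 9.54% of all genes did, and 3 lay lower (Fip1l1, Papolg and Ints9) where 10.1% of all genes did. The summed level of the granulosa and cumulus cell markers was 21.4 to 42.2 CPM in dcKO and 57.1 to 67.9 CPM in control libraries, with a median above 1 CPM for 3 of 10 markers in dcKO and 4 of 10 in control. Cyp19a1, which makes oestrogen in granulosa cells, had a median of 3.23 CPM in dcKO and 28.5 in control, and Ptx3 was at 0 in both. Kitl had 21.8 in dcKO and 26.8 in control, and Fshr 3.17 and 2.47. The part of these cells in the changes was not tested.

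**Figure D2:**
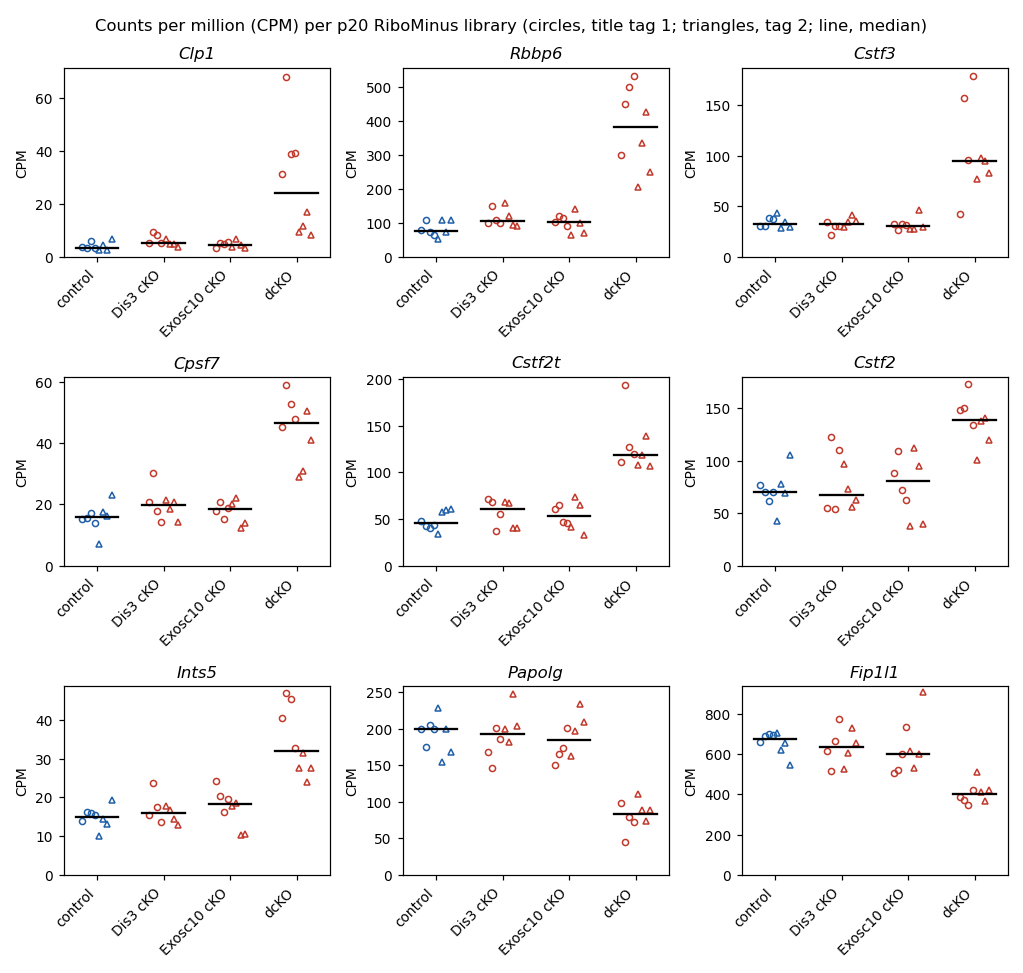
CPM of 9 genes in each p20 RiboMinus library of the control, Dis3 cKO, Exosc10 cKO and dcKO groups, with circles for libraries of title tag 1, triangles for tag 2 and a line at the group median. For Rbbp6, Cpsf7, Cstf2t, Clp1 and Ints5 all 8 dcKO points lie above all 8 control points, and for Papolg and Fip1l1 all 8 lie below, while the single knockouts overlap control.

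In each single knockout few of the 33 genes were called, as of all genes. In the p20 Dis3 cKO 0 were higher and 1 was lower (3.03%), where 7.37% of all genes were called (3.61% and 3.76%). In the p20 Exosc10 cKO 1 was higher and 2 were lower (9.09%), where 7.45% were called (3.95% and 3.5%). Cpsf2 was the gene called in both. Its level was 69.5 to 119 CPM (median 94.3) in control, 47.2 to 91.7 CPM (median 62.7) in Dis3 cKO (log2 fold change -0.50, SE 0.14, adjusted p = 0.018) and 45.5 to 100.5 CPM (median 56.5) in Exosc10 cKO libraries (log2 fold change -0.58, SE 0.14, adjusted p = 0.00558), and the groups overlapped. Ints1, the largest scaffold subunit of Integrator, was 88.7 to 102 CPM (median 95.01) in control and 34.4 to 91.5 CPM (median 68.5) in Exosc10 cKO (log2 fold change -0.61, SE 0.14, adjusted p = 0.00494). Ints7 was 3.75 to 7.20 CPM (median 5.20) and 5.45 to 12.7 CPM (median 9.51), a log2 fold change of 0.83 (SE 0.22, adjusted p = 0.0127). For both genes the groups overlapped. Pcf11 was higher in every Dis3 cKO library than in every control library, where 1.12% of all genes were, but missed the threshold (log2 fold change 0.31, SE 0.10, adjusted p = 0.0506). Within tag 2 alone the Cpsf2 difference was -0.28 for Dis3 (adjusted p = 0.696) and -0.39 for Exosc10 (adjusted p = 0.354). In the Exosc10 cKO Ints1 was -0.31 within tag 1 (adjusted p = 0.357), and Ints7 was 0.68 within tag 1 (adjusted p = 0.302) and 1.00 within tag 2 (adjusted p = 0.0761). With counts summed per tag none of the 33 genes was called in either single knockout by edgeR (4 and 6 at an unadjusted p under 0.05), where 1.37% and 0.832% of all genes were.

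Many of the 33 genes departed, in the double knockout, from the sum of the single ones. For 11 genes the dcKO value was above the sum of the single log2 fold changes and for 8 it was below, 19 of 33 (57.6%), where 31.4% of all genes departed from the sum (14.7% higher and 16.7% lower). Above it lay Clp1 (log2 fold change 2.05, SE 0.46, adjusted p = 0.000918), Cstf3 (log2 fold change 1.81, SE 0.25, adjusted p = 1.86e-06) and Rbbp6 (log2 fold change 1.44, SE 0.26, adjusted p = 8.55e-05). Below it were Papolg (log2 fold change -1.18, SE 0.18, adjusted p = 5.02e-06), Ints9 (log2 fold change -0.66, SE 0.16, adjusted p = 0.00224) and Ints10 (log2 fold change -0.66, SE 0.17, adjusted p = 0.00327). Cpsf2 departed upward (0.72), with -0.37 in the dcKO beside -0.50 and -0.58 in the single knockouts. The Integrator genes were split, with Ints5, Ints1 and Ints3 above the sum and Ints9, Ints10, Ints4 and Ints12 below. With ERCC scaling 8 genes departed, 7 above and 1 below. At most 1 of Papolg, Ints9, Ints10, Ints4 and Ints12 thus kept its call. The median departure of the 12 Integrator genes was -0.22, and 0.06 with ERCC. With counts summed per tag 6 departed, and within tag 1 and tag 2 alone 11 and 9 did, where 6.25%, 22% and 14.5% of all genes departed, and 13.6% with ERCC. The 4 groups share the same control libraries, which enter each of these values.

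**Figure D3:**
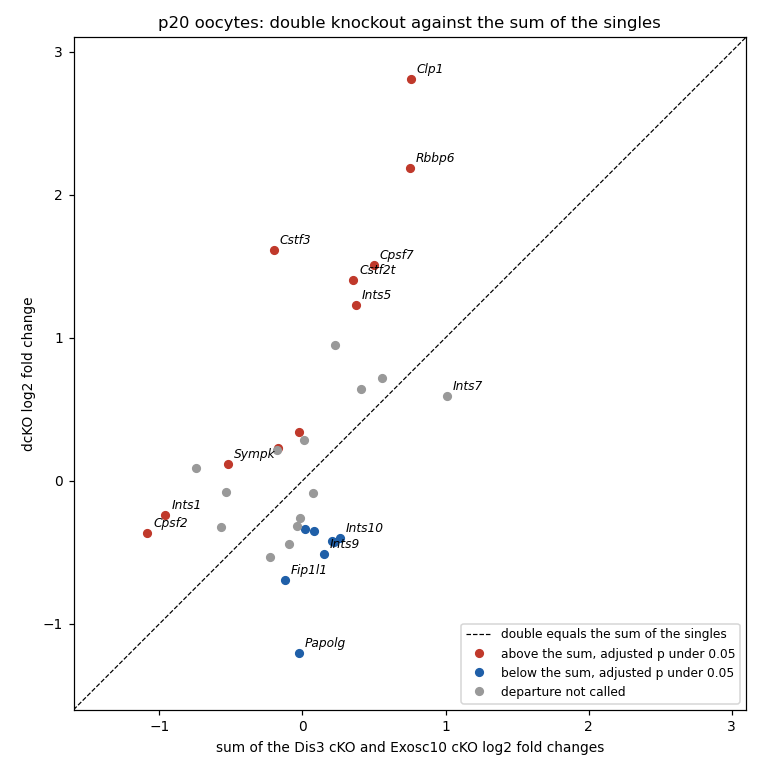
Log2 fold change of each of the 33 genes in the dcKO (vertical axis) against the sum of its log2 fold changes in the p20 Dis3 cKO and Exosc10 cKO (horizontal axis), with a dashed line where both are equal. The 11 red points lie above the line and the 8 blue points below it at an adjusted p under 0.05, with Clp1, Rbbp6 and Cstf3 highest and Papolg lowest.

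In adult GV oocytes the Dis3 cKO had lower levels of 3 Integrator genes, Ints1, Ints5 and Ints2, and of Cpsf1. Of the 33 genes 3 were higher and 4 lower, 7 in all (21.2%), where 28.1% of all 15334 genes were called (15.7% higher and 12.4% lower). The median log2 fold change of the 33 genes was -0.002 and that of all genes 0.026. Ints1 was 64.3 to 84.2 CPM (median 77.99) in control and 29.9 to 60.2 CPM (median 46.9) in Dis3 cKO libraries (log2 fold change -0.71, SE 0.11, adjusted p = 0.000122), and no library of one group reached the other, as in 3.54% of all genes. Ints5 was 10.98 to 16.7 CPM (median 11.4) against 6.21 to 11.02 CPM (median 8.43), a log2 fold change of -0.52 (SE 0.15, adjusted p = 0.0177), and Ints2 was 22.1 to 40.4 CPM (median 27.5) against 13.8 to 26.9 CPM (median 18.6), a log2 fold change of -0.50 (SE 0.14, adjusted p = 0.014). Both pairs of groups overlapped. Cpsf1, the fourth gene that fell, changed by -0.35 (adjusted p = 0.0482). The 3 rises were small, and each turned lower with ERCC scaling. They were Cpsf6 (log2 fold change 0.25, SE 0.07, adjusted p = 0.0158, with ERCC -0.32), Ints12 (log2 fold change 0.23, SE 0.06, adjusted p = 0.00932, with ERCC -0.34) and Cstf1 (log2 fold change 0.22, SE 0.08, adjusted p = 0.0374, with ERCC -0.31). With ERCC scaling 0 genes were higher and 19 lower, where 44.6% of all genes were called. Without the filter on low counts 3 genes were called, Ints1, Ints5 and Ints2, all lower, where 13.6% of all genes were, and the calls of Cpsf1 (adjusted p = 0.07), Cpsf6 (0.0663), Ints12 (0.0564) and Cstf1 (0.094) ended.

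Each genotype of the adult set carries its own pair of title tags, so a difference between tags and the difference between genotypes cannot be told apart. With counts summed per tag edgeR called none of the 33 genes and none of all genes in this comparison, with 2 of the 33 and 3577 of all genes at an unadjusted p under 0.05. Ints1 was 29.9 to 51.7 CPM in the libraries tagged AM1713 and 39.5 to 60.2 in those tagged AM1757, both below the 2 control tags (64.3 CPM and above). Papolg, which had no call here (log2 fold change -0.29, SE 0.12, adjusted p = 0.0811), was 119.8 to 174.7 CPM under AM1713 but 184.6 to 229.2 under AM1757, against 194.9 to 237.3 in control. A different Dis3 effect in adult than in p20 oocytes was called for 0 genes upward and 1 downward, Ints5 (log2 fold change -0.69, SE 0.23, adjusted p = 0.0495), where 9.32% of all genes differed (5.34% upward and 3.98% downward). This call lies near the threshold and ended with ERCC scaling (adjusted p = 0.2), RLE scaling (0.0604), no filter (0.089) and counts summed per tag (0.444), while DESeq2 (0.0439) and a fit of the groups compared (0.0305) kept it. Against control, Ints5 changed by -0.52 in adult Dis3 cKO oocytes and by 0.16 in p20 Dis3 cKO oocytes (adjusted p = 0.676 at p20). The granulosa and cumulus markers summed to 38.8 to 67.7 CPM in adult control and 21.3 to 53.5 CPM in adult Dis3 cKO libraries, and their part was not tested.

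Poly(A) libraries followed the Dis3 cKO from the GV stage to the egg. In GV oocytes 2 genes were higher and 1 was lower (9.09% of the 33), where 21.9% of all 17389 genes were called (13.6% higher and 8.33% lower). Fip1l1 was 243 to 380.3 CPM (median 306) in control and 188 to 259.8 CPM (median 242) in Dis3 cKO libraries (log2 fold change -0.38, SE 0.09, adjusted p = 0.000769). Cstf3 was 16.1 to 30.2 CPM (median 22.3) against 18.8 to 41.2 CPM (median 33.4), a log2 fold change of 0.54 (SE 0.14, adjusted p = 0.00282, with ERCC 0.27 at an adjusted p of 0.342). Pabpn1, which binds the growing tail and stimulates its extension, was 31.2 to 47.6 CPM (median 38.9) against 29.1 to 64.8 CPM (median 49.1), a log2 fold change of 0.31 (SE 0.11, adjusted p = 0.0338, with ERCC 0.01 at an adjusted p of 0.975). The groups overlapped for all 3. Without control libraries 2, 3 and 6 Fip1l1 was -0.51 (adjusted p = 9.02e-05), whereas Cstf3 was 0.43 (adjusted p = 0.0547) and Pabpn1 0.26 (adjusted p = 0.174). Of the 33 genes 3 were then higher, namely Rbbp6 at 1.03 (adjusted p = 0.000495), Cstf2t at 0.88 (adjusted p = 0.00884) and Cstf2 at 0.69 (adjusted p = 0.0264), and Fip1l1 lower, where 19.1% of all genes were called. The libraries left out held the highest control levels of Rbbp6, Cstf2t and Cstf2. Their removal raises these differences in advance, so these calls are not evidence of a rise at GV. Without control library 1 the Pabpn1 call also ended (adjusted p = 0.0607). With ERCC scaling 0 genes were higher and 5 lower, where 20.6% of all genes were called. Pabpn1l ranged from 722 to 1099 CPM in control and from 155 to 991 in Dis3 cKO libraries and had no call (log2 fold change -0.47, SE 0.26, adjusted p = 0.192).

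After 3 h of culture more genes were called, with 5 genes higher and 7 lower (36.4%), where 38.6% of all genes were called (22.9% higher and 15.7% lower). Rbbp6 was 10.2 to 15.4 CPM (median 13.1) in control and 24.4 to 73.1 CPM (median 35.2) in Dis3 cKO libraries (log2 fold change 1.63, SE 0.21, adjusted p = 5.58e-09), and Cstf2t was 18.1 to 30.8 CPM (median 24.04) and 35.4 to 72.5 CPM (median 49.7), a log2 fold change of 1.10 (SE 0.22, adjusted p = 3.36e-05). These 2 genes did not overlap between groups, nor did 5.9% of all genes on the higher side. Cpsf7 was low, at 0.351 to 3.53 CPM (median 1.75) and 1.67 to 14.2 CPM (median 6.93), a log2 fold change of 1.89 (SE 0.55, adjusted p = 0.00443). Cstf2 was 16.5 to 29.7 CPM (median 25.5) and 23.5 to 66.8 CPM (median 43.4), a log2 fold change of 0.87 (SE 0.20, adjusted p = 0.000395), with overlap, and Cpsf6 was higher by 0.37 (adjusted p = 0.034). On the lower side Ints4 was 63.1 to 79.3 CPM (median 70.5) and 35.5 to 61.5 CPM (median 50.7), a log2 fold change of -0.49 (SE 0.13, adjusted p = 0.0015), and Ints12, an Integrator subunit with a PHD finger, was 196 to 236 CPM (median 207) and 132 to 191 CPM (median 156), a log2 fold change of -0.39 (SE 0.10, adjusted p = 0.00143). Both were lower in every Dis3 cKO library than in every control library, as were 3.38% of all genes. Papolg was 218 to 269 CPM (median 238) and 92.2 to 243 CPM (median 160.4), a log2 fold change of -0.51 (SE 0.13, adjusted p = 0.00103), and Ints1 24.7 to 45.1 CPM (median 35.7) and 8.27 to 32.6 CPM (median 22.02), a log2 fold change of -0.65 (SE 0.26, adjusted p = 0.0395). Fip1l1, Cstf1 and Sympk were lower by 0.30, 0.35 and 0.34 on the log2 scale (Sympk at an adjusted p of 0.0486, and 0.0506 without GV control libraries 2, 3 and 6). With ERCC scaling 4 genes were higher and 3 lower (28.2% of all genes called), and a fit of these 2 groups alone called 6 higher and 13 lower (54.6% of all genes called).

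In MII eggs 3 genes were higher and 5 lower (24.2%), where 42.1% of all genes were called (27.3% higher and 14.8% lower), and for none of the 33 were the groups separate, as they were for 2.02% of all genes on the higher and 1.47% on the lower side. Papolg was 228 to 356 CPM (median 265) in control and 69.1 to 229.9 CPM (median 156) in Dis3 cKO eggs (log2 fold change -0.85, SE 0.13, adjusted p = 8.35e-08). The highest knockout egg only just exceeded the lowest control egg. Ints2, Pcf11 and Sympk were lower by 0.57 (SE 0.21, adjusted p = 0.0213), 0.47 (SE 0.14, adjusted p = 0.00426) and 0.42 (adjusted p = 0.0143), and Ints12 by 0.31 (SE 0.10, adjusted p = 0.0108), the last with a value of 0.06 under ERCC scaling. Cstf2t was 13.03 to 34.5 CPM (median 20.9) and 3.57 to 55.9 CPM (median 30.5), a log2 fold change of 0.58 (SE 0.21, adjusted p = 0.0226), Rbbp6 18.2 to 38.2 CPM (median 29.7) and 26.6 to 55.9 CPM (median 40.4), a log2 fold change of 0.52 (SE 0.20, adjusted p = 0.0318) and Cstf2 27.6 to 41.5 CPM (median 31.7) and 28.9 to 106 CPM (median 41.96), a log2 fold change of 0.51 (SE 0.20, adjusted p = 0.0328). Library 15 alone set the lowest Papolg, Cstf2t and Pabpn1l and the highest Cstf2 levels of the Dis3 cKO eggs. The other 15 eggs had 116 to 229.9 CPM of Papolg, 23.5 to 55.9 of Cstf2t, 528 to 1673 of Pabpn1l and 28.9 to 67.8 of Cstf2. Without library 15 the Cstf2 value was 0.38 (adjusted p = 0.0874). With ERCC scaling 7 genes were higher and 1, Papolg, lower (41.9% of all genes called). The lower calls of Ints2, Pcf11, Sympk and Ints12 thus ended. With RLE scaling 3 were higher and 8 lower (42.1% of all genes called). A fit of these 2 groups alone called 3 (1 higher, 2 lower), where 30.6% of all genes were called. Without the filter 5 were called, all lower, where 22.1% of all genes were, and Cstf2t (adjusted p = 0.0515), Rbbp6 (0.0714) and Cstf2 (0.0755) lost their calls. Pabpn1l in eggs ran from 364 to 1029 CPM in control and from 15.1 to 1673 in Dis3 cKO libraries (log2 fold change 0.30, SE 0.26, adjusted p = 0.373).

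**Figure D4:**
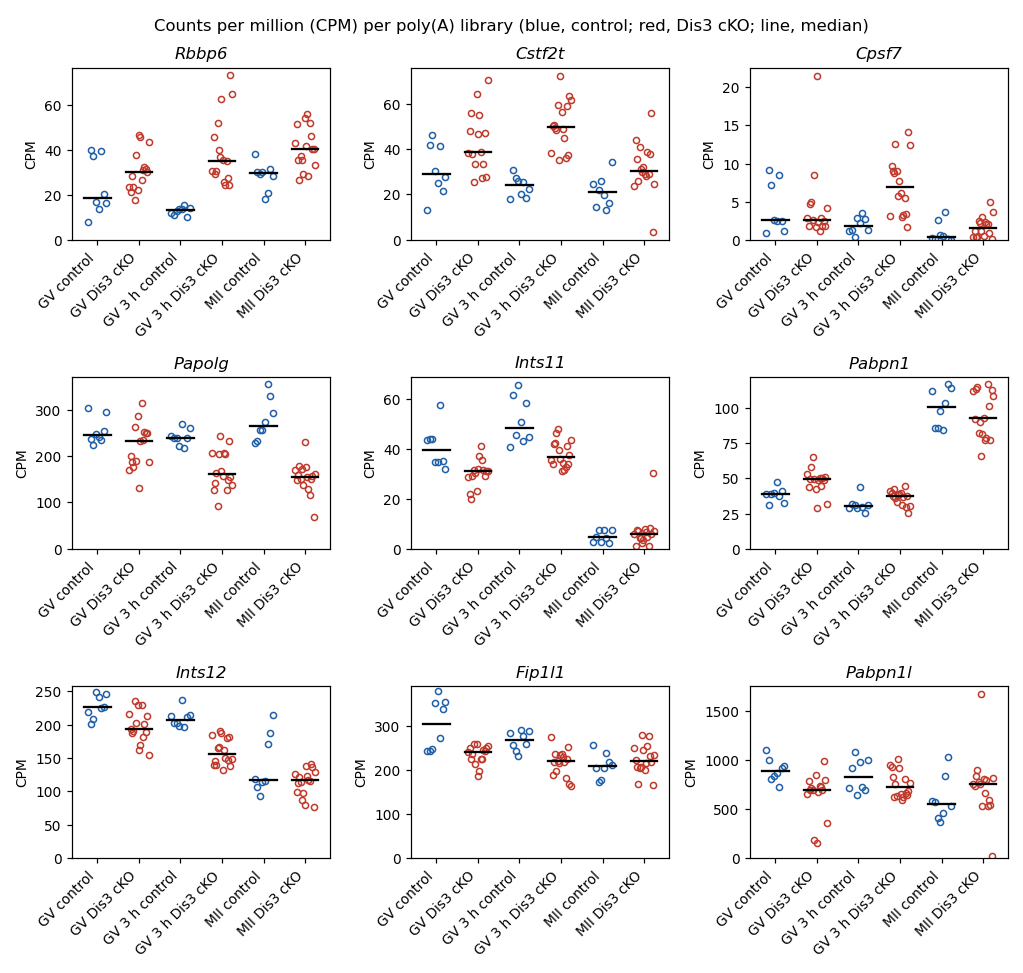
CPM of 9 genes in each poly(A) library by stage (GV, GV3h, MII), with control in blue and Dis3 cKO in red. Rbbp6 and Cstf2t separate the genotypes at GV3h, Papolg lies lower in Dis3 cKO libraries at GV3h and MII, and Ints11 falls from GV to MII in control eggs.

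The Dis3 effect on Rbbp6 was larger at GV3h than at GV, by 1.27 (SE 0.28, adjusted p = 0.00826), beside 0.36 at GV and 1.63 at GV3h. This rests on GV control libraries 2, 3 and 6. Without them the difference was 0.60 (adjusted p = 0.617), with 1.03 (adjusted p = 0.000495) at GV, and edgeR called 0 of the 33 genes (1 at an unadjusted p under 0.05) and 35 of all genes. As these libraries hold the highest Rbbp6 levels of the GV control, leaving them out lowers this difference in advance. With all libraries Rbbp6 was the only one of the 33 genes whose effect differed between these stages, where 2.04% of all genes differed (1.37% higher and 0.667% lower). Between MII and GV the effect differed for 3 genes, where 13.2% of all genes did (9.28% higher and 3.88% lower). For Fip1l1 it was higher at MII by 0.47 (SE 0.13, adjusted p = 0.00708). For Cstf3 it was lower by 0.85 (SE 0.20, adjusted p = 0.00129), with ERCC -0.23 (adjusted p = 0.544), and for Papolg lower by 0.65 (SE 0.18, adjusted p = 0.0112), a sign that turned to 0.04 with ERCC. Without GV control libraries 2, 3 and 6 Papolg was -0.57 (adjusted p = 0.0659), Fip1l1 0.60 (adjusted p = 0.00125) and Cstf3 -0.75 (adjusted p = 0.0148). The granulosa and cumulus markers summed to 35.5 to 69.7 CPM in control and 18.5 to 45.1 CPM in Dis3 cKO oocytes at GV3h, 75.96 to 122 CPM and 21.6 to 60.7 CPM in eggs, and 55.4 to 125 CPM and 28.5 to 95.3 CPM at GV. The markers did not move together. At GV3h the median of Cyp19a1 was 40.8 CPM in control and 10.7 in Dis3 cKO, whereas Kitl was 9.04 and 11.6, Inha 1.30 and 3.92, and Fshr 0.0569 and 1.39. In eggs Cyp19a1 was 63.1 and 27.5, Kitl 15.7 and 9.66 and Has2 1.04 and 0. The medians of Amh, Amhr2, Fshr, Inha and Foxl2 were 0 in eggs of both genotypes. At GV Cyp19a1 was 34.1 and 13.7, Inha 20.6 and 4.85 and Kitl 13.8 and 12.2, whereas Fshr was 0.929 and 1.40. The part of these cells was not tested.

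Set side by side, 9 genes were called in the same direction in 3 or more of the 7 knockout comparisons, of which the 3 at p20 share 1 control group. These are 27.3% of the 33 genes, beside 28.4% of the 14336 genes tested in all 7. Rbbp6, Cstf2 and Cstf2t were higher in Dis3 cKO oocytes at GV3h and in the dcKO, and at MII, where all 3 calls end without the filter, that of Cstf2 also without library 15, and those of Cstf2 and Cstf2t also in a fit of the groups alone. Cpsf6 was higher at GV3h (a call that ended with ERCC scaling at an adjusted p of 0.219, without the filter at 0.0638, in a fit of these groups alone at 0.0697 and without GV control library 1 at 0.0735), in adult RiboMinus libraries (a call that ended without the filter and turned to -0.32 with ERCC) and in the dcKO. Papolg was lower at GV3h and MII and in the dcKO, and kept these calls under every alternative run on them. Ints12 was lower in the same 3, at MII with 0.06 under ERCC scaling (adjusted p = 0.781) and an adjusted p of 0.0665 in a fit of the groups alone, and was called higher in adult RiboMinus libraries, where it was -0.34 with ERCC and lost its call without the filter. Fip1l1 was lower at GV, GV3h and in the dcKO, Ints1 at GV3h, in adult and in Exosc10 cKO oocytes, and Cpsf2 in all 3 p20 knockouts. Summing per tag ended the Ints1 calls in adult and Exosc10 cKO oocytes, the adult calls of Cpsf6 and Ints12, and all 3 calls of Cpsf2. ERCC scaling ended those of Fip1l1 and Ints1 at GV3h, of Ints1 in the Exosc10 cKO and of Cpsf2 in the Exosc10 cKO and dcKO. Ints1 at GV3h also lost its call without the filter (adjusted p = 0.0587). Over the 7 comparisons 11 genes were called higher only (33.3%, beside 38.7% of all genes), 15 lower only (45.5% beside 33.5%), 4 in both directions (12.1% beside 11.5%) and 3 in none (9.09% beside 16.3%).

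The control oocytes show how the polyadenylated RNA of the group behaves in normal maturation. The part of tail length in these values was not tested. From GV to GV3h 1 gene was higher and 1 lower, where 2.71% of all genes were called (1.14% higher and 1.56% lower). Ints4 was 39.97 to 55.9 CPM (median 50) at GV and 63.1 to 79.3 CPM (median 70.5) at GV3h (log2 fold change 0.54, SE 0.15, adjusted p = 0.0309), without overlap, as did 1.06% of all genes, and Rbbp6 was lower, at 7.79 to 39.97 CPM (median 18.7) and then 10.2 to 15.4 CPM (median 13.1), a log2 fold change of -0.90 (SE 0.23, adjusted p = 0.0187). Without GV libraries 2, 3 and 6, Rbbp6 was -0.23 (adjusted p = 0.78) and Ints4 0.53 (adjusted p = 0.163), and edgeR called 0 of the 33 genes (5 at an unadjusted p under 0.05) and 115 of all genes. From GV to MII 4 genes were higher and 11 lower (45.5%), where 58.5% of all genes were called (22.7% higher and 35.8% lower). Ints11, the Integrator endonuclease, was 31.7 to 57.6 CPM (median 39.3) at GV and 2.37 to 7.39 CPM (median 4.55) at MII (log2 fold change -3.04, SE 0.31, adjusted p = 1.01e-13), with no overlap between the stages, and the gene overlaps Pusl1. Nudt21 was low at both stages, with 0.551 to 3.97 CPM (median 0.982) at GV and 0 to 0.820 CPM (median 0.254) at MII (log2 fold change -2.53, SE 0.57, adjusted p = 0.000102). Cpsf7 was 0.935 to 9.13 CPM (median 2.53) at GV and 0 to 3.63 CPM (median 0.394) at MII (log2 fold change -2.10, SE 0.62, adjusted p = 0.00279). Without GV libraries 2, 3 and 6, Cpsf7 was -0.91 (adjusted p = 0.272), Nudt21 -1.47 (adjusted p = 0.0409) and Ints11 -2.87 (adjusted p = 2.38e-11), and 5 genes were higher and 10 lower, where 49.6% of all genes were called. Cstf1 and Cstf2t then lost their calls, at 0.32 (adjusted p = 0.102) and -0.14 (adjusted p = 0.689), and Rbbp6, Cstf2 and Ints3 gained one, at 0.91 (adjusted p = 0.00118), 0.77 (adjusted p = 0.00807) and -0.37 (adjusted p = 0.0407). Cpsf7, Nudt21, Ints11, Cstf2t, Rbbp6 and Cstf2 had their highest GV levels in the libraries left out. Their values without these libraries therefore move upward in advance. Pabpn1 was 31.2 to 47.6 CPM (median 38.9) at GV and higher at MII, with 84.03 to 117 CPM (median 100.4), a log2 fold change of 1.38 (SE 0.13, adjusted p = 1.64e-15), but lower with ERCC (-0.48). Ints8 and Ints6, of the phosphatase module of Integrator, were also higher (log2 fold change 0.71, SE 0.13, adjusted p = 5.46e-06 and 0.62, SE 0.15, adjusted p = 0.000388) and lower with ERCC (-1.13 and -1.20). With ERCC scaling all 33 genes were lower in MII, where 87.8% of all genes were called and the median log2 fold change was -2.12 for the 33 and -2.12 for all genes, and with RLE scaling 6 were higher and 10 lower (58.6% of all genes called). The groups were separate on the lower side for Cpsf3, Cpsf4, Sympk, Ints1 and Ints11 (17.6% of all genes) and on the higher side for Pabpn1 and Ints8 (10.8%).

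Between control p20 and adult GV oocytes 6 genes were higher and 7 lower in the adult (39.4%), where 19.1% of all 17267 genes were called (8.69% higher and 10.4% lower). Pabpn1l was 78.3 to 129 CPM (median 119) at p20 and 141 to 231 CPM (median 179.7) in the adult (log2 fold change 0.70, SE 0.14, adjusted p = 0.000269), without overlap and higher, as in 2.86% of all genes, but lower with ERCC (-1.01). Cpsf4 and Ints9 were higher (log2 fold change 0.49, SE 0.12, adjusted p = 0.00366 and 0.33, SE 0.10, adjusted p = 0.019) and likewise lower with ERCC (-1.21 and -1.36). The lower genes were led by Clp1 (log2 fold change -1.26, SE 0.45, adjusted p = 0.0395), Ints7 (log2 fold change -1.10, SE 0.24, adjusted p = 0.00103) and Cpsf7 (log2 fold change -1.06, SE 0.24, adjusted p = 0.00129), with Cstf2t, Cstf2, Rbbp6 and Ints2 also lower by 0.93, 0.86, 0.81 and 0.50 on the log2 scale. With ERCC scaling all 33 genes were lower in the adult, where 86.1% of all genes were called and the median log2 fold change was -1.56 for the 33 and -1.69 for all genes. With counts summed per tag 2 of the 33 were called, both lower, where 1.04% of all genes were. The p20 and adult libraries differ in age and also in their title tags, which cannot be told apart.

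Around this group, 40 further genes of termination, Integrator partners, cap binding and snRNA, histone mRNA ends and cytoplasmic tails were set as the wider pathway, of which 39 were tested. In the p20 dcKO 14 of these were higher and 7 lower (53.8%, beside 53.7% of all genes), a median log2 fold change of 0.02. In Dis3 cKO poly(A) oocytes 4 were higher and 6 lower at GV (25.6% beside 21.9%), 8 and 8 at GV3h (41% beside 38.6%), and 6 and 7 at MII (33.3% beside 42.1%). In RiboMinus oocytes the Dis3 cKO had 10 higher and 10 lower in the adult (51.3% beside 28.1%) and 3 higher and 2 lower at p20 (12.8% beside 7.37%), and the Exosc10 cKO had 4 higher and 2 lower (15.4% beside 7.45%). By list, the dcKO called 6 higher and 2 lower of 12 termination genes, 4 higher and 0 lower of 5 cap and snRNA genes, 2 higher and 0 lower of 8 Integrator partners, 1 higher and 2 lower of 6 histone mRNA genes, and 1 higher and 3 lower of 8 tested genes of cytoplasmic tails. The steepest rises there were Rprd1b, which binds the Pol II tail (2.60), and Ncbp1, the large subunit of the nuclear cap-binding complex (1.67), and the steepest falls Tent4b, the non-canonical poly(A) polymerase that tags exosome substrates (-0.74), and Rprd1a (-0.72). Srrt, the cap-complex partner also called ARS2, had the largest rise of the wider pathway in the Dis3 cKO at GV (log2 fold change 1.79, adjusted p = 1.77e-10), at GV3h (log2 fold change 2.31, adjusted p = 2.42e-14) and in adult RiboMinus libraries (log2 fold change 1.85, adjusted p = 3.88e-06) and was next after Zfp473 at MII (log2 fold change 1.70, adjusted p = 2.78e-10).

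H3K27me3 peaks were fewer at the starts of these genes than over all genes, while Pol II peaks lay at 0 to 4 of the starts in a list. Their share was above that of all genes in 6 of 9 lists, but in 3 when a peak had to cover at least 50% of the window, and in 7 with peaks above the median signal or with a wider window. As 1 of the 27 genes is already 3.70%, a list can lie above or below by 1 gene, so this tally is no trait of the group. Over the 3 H3K27me3 lists of each group, 0 or 1 of the 27 genes with a promoter window (250 bases before to 50 after the start) overlapped a peak, where 11% to 20.9% of all 27025 windows did. Sympk had an H3K27me3 peak in 3 of 3 p20 control lists and in 1 of 3 adult control lists. Cpsf7 had one in 1 of 3 dcKO lists. Over the Pol II lists 0 to 4 of the 27 genes overlapped a peak, where 1.45% to 6.47% of all windows did. The share of the 27 was 3.70% in each of the 3 adult control lists (beside 1.45%, 2.88% and 1.88% of all windows), 3.70%, 14.8% and 3.70% in p20 control (beside 4.93%, 5.68% and 5.51%) and 7.41%, 0 and 11.1% in adult Dis3 cKO (beside 4.77%, 2.25% and 6.47%). Cstf3 had a Pol II peak in 2 of 3 p20 control lists, and Ints6, Ints7, Cstf2 and Cpsf4 in 1 of 3. Pabpn1, Ints6 and Ints7 each had one in 1 of 3 adult control lists, each in a different list. Sympk, Nudt21, Pabpn1, Pabpn1l and Ints7 each had one in 1 of 3 adult Dis3 cKO lists. The peaks were called by the authors in each sample, list sizes ranged from 87394 to 299716 peaks for H3K27me3 and from 19697 to 122606 for Pol II, and a larger list covers more windows, so no difference between groups was tested.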

How the data were processed

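Single-oocyte RNA was sequenced as poly(A) or RiboMinus libraries, and pooled oocytes by CUT&Tag. The authors deposited whole-number counts of reads per gene ID in each RNA library, which were used without change, with ERCC spike-in rows kept apart. They also deposited 1 CUT&Tag peak list per sample with a signal value for each peak, which was used only for position and for filtering within a list. The submitters' processing notes name cutadapt 2.5, FastQC 0.11.8, STAR 2.7.2a, SAMtools 1.9, HTSeq 0.9.1, R 3.5.1, DESeq2 1.24.0, SEACR and the mm10 build, without their roles, and the series' design text states that CUT&Tag reads were down-sampled to a fixed number and not deduplicated. Whether HTSeq counted by strand is not given in the sources used here.

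Counts were tested with edgeR 4.0.16 in R 4.3.3 (glmQLFit and glmQLFTest, TMM scaling, filterByExpr), in 1 fit of the 6 poly(A) groups, 1 of the 4 p20 groups, 1 of the 2 adult groups and, across ages, 1 of all 6 RiboMinus groups, with Benjamini-Hochberg adjustment over all genes tested and a threshold of 0.05. Departure from the sum of single knockouts and differences between stages were interaction terms. Gene symbols matched 99.7% of poly(A) and 99.4% of RiboMinus gene IDs. The script was tested on simulated counts with known changes. Alternatives were ERCC and RLE scaling, DESeq2 1.42.0, no filter, only the groups compared, a replicate block, title tags summed or taken singly, and libraries left out, of which the GV control libraries 2, 3 and 6 were chosen after seeing the data. The genes named are, in each comparison, up to 3 rises and 3 falls past the threshold, those called alike in 3 or more knockout comparisons, and Pabpn1l. Other genes are named, after their values were seen, where a count is spelled out. The members, lists and tests were chosen with earlier results of these data known. Promoter sequences and gene positions are from RefSeq GRCm38.p6, matched by symbol (27 of 33 windows). The IgG CUT&Tag samples were not analysed here, nor was 1 GV Dis3 cKO oocyte that the design text counts.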

Additional observations from a re-analysis of the deposited data

Results flagged for a closer look

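In groups of 8 libraries, 25 of 243 pairs of a gene and a group (10.3%, over 27 named genes and 9 groups) had a highest or lowest library farther from its neighbour than Dixon's 95% limit allows. For independent, normally distributed values about 1 in 20 would exceed it. CPM values need not be normal and the genes share libraries, so the 10.3% cannot be set against that share. Among the poly(A) GV control libraries, Cpsf6 in library 4 was 17.2 CPM, the lowest of its group, next to 26.8, and Ints2 in library 6 was 63.3 CPM, the highest of its group, next to 38.8. Further, Ints11 in library 6 was 57.6 CPM, the highest of its group, next to 43.9. Among the poly(A) MII control libraries, Cpsf6 in library 1 was 60.97 CPM, the highest of its group, next to 33.1. Among the poly(A) GV3h control libraries, Clp1 in library 4 was 6.09 CPM, the highest of its group, next to 2.87, and Pabpn1 in library 5 was 43.6 CPM, the highest of its group, next to 31.5. Further, Ints12 in library 5 was 236 CPM, the highest of its group, next to 214. Among the p20 Exosc10 cKO libraries, Cpsf2 in library 2_3 was 100.5 CPM, the highest of its group, next to 67.9, and Cpsf4 in library 2_4 was 50.9 CPM, the highest of its group, next to 37.1. Further, Cstf3 in library 2_3 was 46.1 CPM, the highest of its group, next to 32.5, and Ints4 in library 2_4 was 111 CPM, the highest of its group, next to 87.4. In these libraries, Ints12 in library 2_4 was 195 CPM, the highest of its group, next to 131. Among the p20 dcKO libraries, Fip1l1 in library 2_1 was 513 CPM, the highest of its group, next to 421, and Cstf2t in library 1_2 was 194 CPM, the highest of its group, next to 139. Further, Nudt21 in library 1_3 was 4.57 CPM, the highest of its group, next to 2.25, and Ints8 in library 2_2 was 48.2 CPM, the lowest of its group, next to 64.97. In these libraries, Ints11 in library 1_4 was 20.5 CPM, the highest of its group, next to 13.4. Among the p20 control libraries, Cstf1 in library 2_1 was 132 CPM, the highest of its group, next to 102, and Nudt21 in library 2_1 was 0.527 CPM, the lowest of its group, next to 1.69. Further, Pabpn1l in library 1_4 was 78.3 CPM, the lowest of its group, next to 106. Among the p20 Dis3 cKO libraries, Cpsf7 in library 1_2 was 30.3 CPM, the highest of its group, next to 21.4, and Pabpn1l in library 2_4 was 70.7 CPM, the lowest of its group, next to 117. Further, Ints5 in library 1_2 was 23.6 CPM, the highest of its group, next to 17.8, and Ints11 in library 1_4 was 17.8 CPM, the highest of its group, next to 12.5. Among the adult RiboMinus control libraries, Clp1 in library AM1759_1 was 3.96 CPM, the highest of its group, next to 2.1. For 5 genes an interaction term in edgeR called a different response to Dis3 loss between stages or ages. Rbbp6 differed by 1.27 between GV3h and GV, and Fip1l1 by 0.47, Cstf3 by -0.85 and Papolg by -0.65 between MII and GV on the log2 scale. Without GV control libraries 2, 3 and 6 the values were 0.60 (adjusted p = 0.617) for Rbbp6 and -0.57 (adjusted p = 0.0659) for Papolg. Ints5 differed by -0.69 between adult and p20 oocytes, a call that ended under 4 of the 6 alternatives run on it.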

How the results depend on the processing

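Of the 72 results for named genes, recomputed under each alternative that applies, 502 values kept their direction and side of the threshold, 81 kept the direction but not the call, 1 gained a call and 14 turned. ERCC scaling changed 31 of the 72, and summing per title tag 19 of the 37 it applies to. ERCC scaling called 5 genes at GV (0 higher, 5 lower), 7 at GV3h, 0 for control GV3h against GV (8 at an unadjusted p under 0.05 by edgeR, and 118 of all genes called), 33 for control MII against GV, 9 for the MII and GV difference, 19 in adult Dis3 cKO, 0 in Exosc10 cKO (3 unadjusted, 364 of all genes called), 8 for departure from the sum, 33 for adult against p20 and 0 for the age difference (2 unadjusted, 583 of all genes called). It turned Pabpn1 (-0.48), Ints8 (-1.13) and Ints6 (-1.20) in control MII, Papolg (0.04) for the MII and GV difference, Cpsf6 (-0.32), Ints12 (-0.34), Cstf1 (-0.31) and Pabpn1l (-0.48) in the adult, Ints12 (0.06) at MII, Pabpn1l (-0.21) in p20 Dis3 cKO, and Pabpn1l (-1.01), Cpsf4 (-1.21) and Ints9 (-1.36) for adult against p20. In tag 2 alone Pabpn1l in p20 Dis3 cKO was -0.07. Fitting only the groups compared called 19 genes at GV3h, 3 at MII and 6 for control GV3h. Without the filter 5 were called at MII, 3 in the adult and 0 for the age difference (2 unadjusted). DESeq2 called 5 for the MII and GV difference and 2 in p20 Dis3 cKO, and RLE scaling called 2 in p20 Dis3 cKO and 0 for the age difference (2 unadjusted). Without MII Dis3 cKO library 15 the MII and GV difference had 5. Summing per title tag called 0 in the adult (2 unadjusted), p20 Dis3 cKO (4 unadjusted) and Exosc10 cKO (6 unadjusted), 6 for departure from the sum, 2 for adult against p20 and 0 for the age difference (0 unadjusted). Tag 1 alone called 1 in Exosc10 cKO and 11 for departure from the sum, and tag 2 alone 0, 1, 14 and 9 in the Dis3 cKO, Exosc10 cKO, dcKO and departure. The cause was not tested. Leaving out p20 Dis3 cKO library 1_4 and Exosc10 cKO library 2_4, chosen after seeing the data, called 1, 3, 25 and 16 in these 4. Leaving out GV control libraries 2, 3 and 6, also chosen after seeing the data, called 4 at GV, 11 at GV3h, 8 at MII, 0 for control GV3h (5 unadjusted), 15 for control MII, 0 for the GV3h and GV difference (1 unadjusted) and 2 for the MII and GV difference, and ended 7 calls of named genes. Library numbers do not pair the samples (same-numbered correlations of deviations -0.434 to 0.352, none over 0.1 in every pair). A replicate block called 3, 9, 7, 2, 14, 1 and 3 of the poly(A) comparisons (GV, GV3h, MII, control GV3h, control MII, and the 2 stage differences) and 1, 3, 25 and 20 at p20. It ended 4 calls, Ints1 (-0.61, adjusted p = 0.0888) and Cpsf6 (0.31, 0.125) at GV3h, and Rbbp6 (0.44, 0.0849) and Cstf2 (0.40, 0.092) at MII. The mean number of genes with a peak at their start moved with a wider window to 1.0 (H3K27me3 adult control), 0.333 (adult Dis3 cKO) and 1.33 (p20 dcKO), and for Pol II to 1.33 (adult control) and 4.0 (adult Dis3 cKO). Requiring overlap of at least 50% of the window gave 0.333 for H3K27me3 in p20 control and for Pol II in adult control, and also moved Pol II in adult Dis3 cKO to 0.333 and in p20 control to 0.667, and H3K27me3 in adult control to 0. The wider window gave 3.0 for Pol II in p20 control, and peaks above the median signal gave 0.667 for it, 1.0 for Pol II in adult Dis3 cKO and 0 for H3K27me3 in p20 dcKO. Leaving out each list gave 0 to 0.5 (H3K27me3 adult control), 1.0 to 1.0 (H3K27me3 p20 control), 0 to 0 (H3K27me3 adult Dis3 cKO), 0 to 0.5 (H3K27me3 p20 dcKO), 1.0 to 1.0 (Pol II adult control), 1.0 to 2.5 (Pol II p20 control), 1.0 to 2.5 (Pol II adult Dis3 cKO). Depth limits what can be said of genes near 1 CPM, such as Nudt21 and, in poly(A) libraries, Cpsf7.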
